A study of Mus musculus with 9 samples.

Results

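The proplatelet cytoskeleton was examined through 10 genes chosen by name, Tubb1, Tuba8, Myh9, Myh10, Myl9, Flna, Actn1, Tpm4, Diaph1 and Was, which were matched by gene name to the probes of the arrays. The match gave 22 of 56585 probes and 10 of 37316 named genes. Of the 22 probes 19 passed the filter on dim spots, and each of the 10 genes kept at least 1 probe. Diaph1 is listed on the array under its older name Diap1 and was found through the RefSeq transcripts of its 3 probes.

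Before platelets are released, a mature megakaryocyte extends long proplatelet shafts into the marrow vessels. Bundles of microtubules, in which β1-tubulin is the lineage's own isoform, elongate and slide to drive the shafts and later form the ring at the rim of each platelet. Non-muscle myosin II, actin filaments and their cross-linkers hold the membrane, restrain premature release and set platelet size, and inherited defects in many of these genes change the size or number of platelets.

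The groups were mature megakaryocytes (mMKs) of control mice (Ctrl), which the methods describe as sham-irradiated, and mMKs taken 1 day (1 dpi) and 3 days (3 dpi) after 5 Gy of γ-rays given to the whole body. The labels give male mice in every group, the methods name C57BL/6 as the wild-type strain, and the age of these mice is not given in the sources used here. Each group has 3 arrays, which the design text assigns to separate experiments with different donors, and how many mice went into 1 array is not given. The methods describe enrichment from femur and tibia marrow by positive selection for CD41 and then CD42d, surface proteins of megakaryocytes and platelets.

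The arrays are Agilent 1-colour arrays with 60-base probes, and a value is the log2 intensity of a probe minus the 75th percentile of its array. The share of spots flagged as well above background ran from 69.1% to 81.8%. The 75th percentile, on the log2 scale, lay between 9.33 and 9.45 at 1 dpi, below the 10.03 to 10.66 of Ctrl and the 10.37 to 10.55 of 3 dpi. After scaling, the 29410 genes tested were shifted in the median by 0.25 on the log2 scale at 1 dpi, 0.11 at 3 dpi and -0.11 for 3 dpi against 1 dpi, so changes relative to this median are given beside the main results. Ctrl replicate 1 was alone on its slide and the other 8 arrays shared 1 slide. All 18 megakaryocyte markers checked, among them Pf4, Itga2b and Gp9, were well above background on at least 1 array of each group, but so were all markers of 7 of the 9 other lists of cell types and proliferation. The exceptions were Lmod1, of the smooth muscle and pericyte list, on 0 arrays, and 2 erythroid markers at 1 dpi.

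Across the 10 genes the changes went in both directions. Myl9 and Myh10 moved past 2-fold, Tubb1 and Tpm4 climbed in steps below 2-fold, and Flna, Actn1 and Diaph1, read through their brightest probes, missed the test in each of the 3 comparisons. At 1 dpi 5 of the 10 genes rose (Tubb1, Tuba8, Myh9, Myl9 and Tpm4) and 2 fell (Myh10 and Was) at an adjusted p under 0.05 from limma, with Benjamini-Hochberg adjustment over all genes tested. Over all genes tested 34.8% were higher and 21.1% lower by the same rule. With a change of at least 2-fold also required, a gene is here said to be called, and at 1 dpi 1 of 10 genes was called higher, Myl9, and 1 lower, Myh10, against 12.3% and 2.87% of all genes. At 3 dpi 4 genes rose (Tubb1, Tuba8, Myl9 and Tpm4) and 1 fell (Myh10), beside 16.9% and 15.1% of all genes. There 1 gene was called higher, Myl9, and 0 lower, beside 6.98% and 1.82%. Between the later and the earlier time 4 genes rose (Tubb1, Myl9, Tpm4 and Myh10) and 1 fell (Myh9), beside 19.8% and 24.9% of all genes, and Myh10 was called higher with 0 called lower, beside 3.97% and 4.82%. The median change of the 10 genes was 0.23 at 1 dpi, 0.07 at 3 dpi and 0.17 for 3 dpi against 1 dpi, beside 0.25, 0.11 and -0.11 for all genes, so the last had the opposite sign. The ranges of the groups were apart in 8 of the 10 genes at 1 dpi, where 67.5% of all genes were so separated, in 5 at 3 dpi (47%) and in 6 for 3 dpi against 1 dpi (65.5%). These separations between groups were about as frequent as over all genes, and the genes are described singly. The comparisons of 1 and 3 dpi share the Ctrl arrays and are not independent of each other. In bulk RNA, fewer cells that carry a transcript and less of it per cell cannot be told apart.

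**Figure D1:**
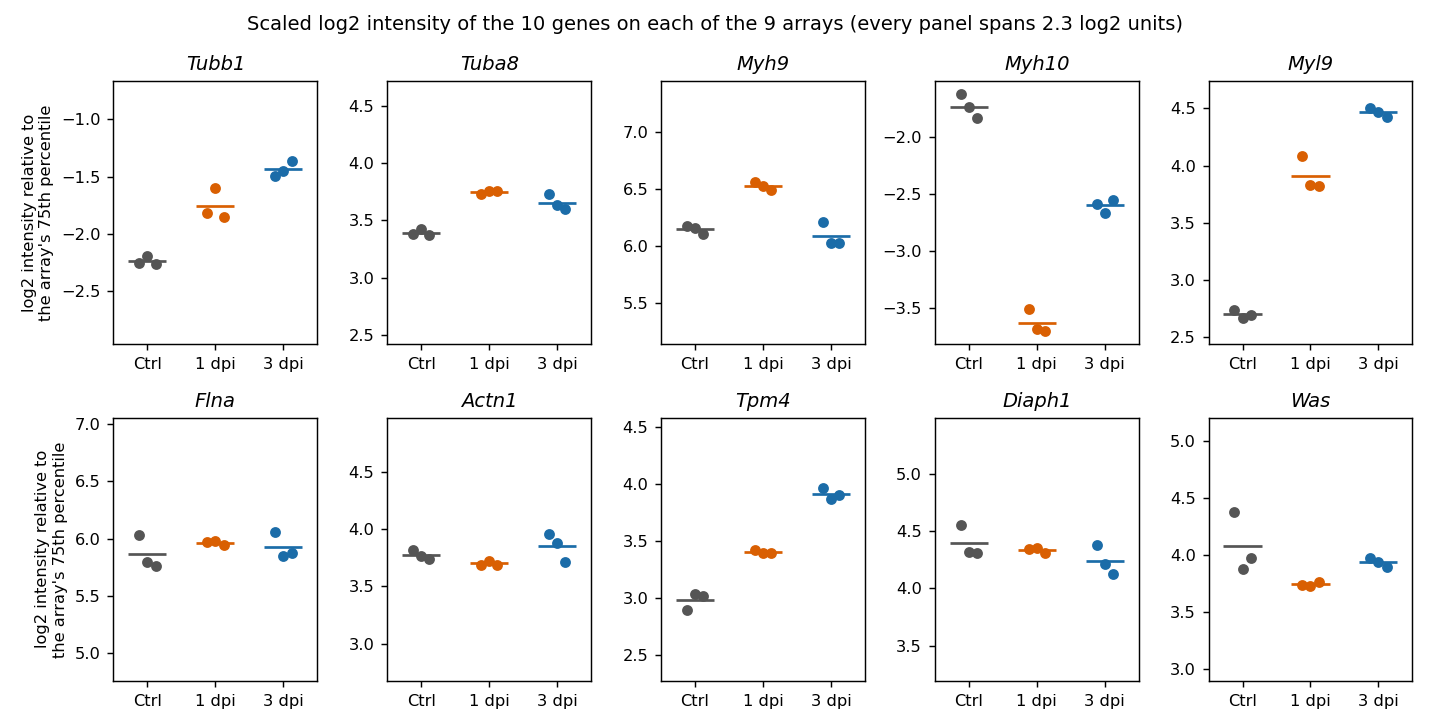
Scaled log2 intensity of the brightest probe of each gene (vertical axis, log2 relative to the array's 75th percentile) in Ctrl, 1 dpi and 3 dpi. Points are arrays, lines are group means, and every panel spans the same 2.3 log2 units. Myl9, Tpm4 and Tubb1 climb from Ctrl to 1 dpi to 3 dpi without overlap, while Myh10 drops from a mean of -1.73 to -3.63 and comes back to -2.60.

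Tubb1, Myl9 and Tpm4 were the 3 genes that rose at 1 dpi and again from 1 to 3 dpi, and the 250 bases before their RefSeq transcription starts are shown to let their promoters be compared. RefSeq promoters of the build GRCm38.p6 were matched for 9 of the 10 genes, that of Diaph1 not being used here. The windows lie on the plus strand at chr2:174450345-174450594 for Tubb1, chr2:156775214-156775463 for Myl9 and chr8:72135038-72135287 for Tpm4, and capitals mark the motif matches.
Tubb1: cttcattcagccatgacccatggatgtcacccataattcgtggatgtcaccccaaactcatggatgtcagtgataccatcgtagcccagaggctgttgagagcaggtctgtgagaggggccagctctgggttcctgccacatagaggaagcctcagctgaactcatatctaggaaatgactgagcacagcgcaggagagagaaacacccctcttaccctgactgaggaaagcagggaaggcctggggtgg
Myl9: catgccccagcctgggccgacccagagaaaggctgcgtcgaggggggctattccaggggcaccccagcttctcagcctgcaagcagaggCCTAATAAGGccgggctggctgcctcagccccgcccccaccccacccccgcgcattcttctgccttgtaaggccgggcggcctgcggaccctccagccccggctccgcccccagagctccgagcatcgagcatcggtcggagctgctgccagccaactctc
Tpm4: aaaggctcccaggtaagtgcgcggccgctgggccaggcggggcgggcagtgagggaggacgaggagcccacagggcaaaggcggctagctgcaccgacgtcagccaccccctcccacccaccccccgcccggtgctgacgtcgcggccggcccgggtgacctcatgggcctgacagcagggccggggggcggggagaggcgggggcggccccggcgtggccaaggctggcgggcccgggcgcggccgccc
The windows of 9 genes, with the 50 bases after the start, were searched on both strands for the GATA motif AGATAA, the ETS motif CCGGAA, the NF-E2 motif GCTGAGTCA with its AP-1 core TGAGTCA (each NF-E2 match also holds the core), and the CArG box that binds serum response factor. The CArG box occurred once, in Myl9, where the capitals begin at position -161 from the start. It occurs in 1.63% of the 32851 promoter windows of the table. The other motifs occurred in 0 of the 9 windows, against 11.2% of all windows for GATA, 14.9% for ETS, 0.454% for NF-E2 and 5.20% for the AP-1 core. The GC content of the 250 bases was 54.0% for Tubb1, 70.0% for Myl9 and 78.8% for Tpm4.

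Of the tubulins, Tubb1 encodes β1-tubulin, the β-tubulin of the platelet microtubule ring. Its single probe (mm9, chr2:174283277-174283336) read -2.26, -2.20 and -2.26 in Ctrl, -1.82, -1.60 and -1.86 at 1 dpi and -1.49, -1.46 and -1.37 at 3 dpi. Each later group lay wholly above the earlier one. Against Ctrl, Tubb1 rose by 0.48 (SE 0.08, 1.40-fold, limma adjusted p = 0.0019) at 1 dpi and by 0.80 (SE 0.08, 1.74-fold, adjusted p = 0.00022) at 3 dpi. With the median of all genes taken off, the rises were 0.23 and 0.69. Scaling to the array median left 0.17 at 1 dpi (adjusted p = 0.32) and 0.68 at 3 dpi (adjusted p = 0.0049). From 1 to 3 dpi the rise was 0.32 (SE 0.08, adjusted p = 0.015), and without 1 array it lay between 0.27 and 0.40 with an adjusted p of up to 0.056. With a normexp background it was 0.18 (adjusted p = 0.034). The Tubb1 signal was dim, with processed intensities of 219.3 to 343.5 units in Ctrl, 181.7 to 230.8 at 1 dpi and 469.1 to 574.2 at 3 dpi.

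Tuba8, an α-tubulin that pairs with β-tubulins in the microtubule wall, read 3.38, 3.43 and 3.38 in Ctrl, 3.73, 3.75 and 3.76 at 1 dpi and 3.73, 3.64 and 3.60 at 3 dpi (mm9, chr6:121176046-121176105). The irradiated arrays lay above those of Ctrl and overlapped each other. Tuba8 rose by 0.35 (SE 0.06, 1.28-fold, adjusted p = 0.0015) at 1 dpi and by 0.26 (SE 0.06, 1.20-fold, adjusted p = 0.0097) at 3 dpi. Beyond the median of all genes, 0.11 (adjusted p = 0.15) and 0.15 (adjusted p = 0.083) were left, so neither passed on that scale. The difference between 3 and 1 dpi was -0.09 with a 95% confidence interval from -0.23 to 0.04 (adjusted p = 0.23).

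Myl9, the regulatory light chain whose phosphorylation switches on non-muscle and smooth muscle myosin II, had the largest rise among the 10 genes. Its probe (mm9, chr2:156607301-156607360) read 2.73, 2.67 and 2.70 in Ctrl, 4.08, 3.83 and 3.83 at 1 dpi and 4.51, 4.47 and 4.43 at 3 dpi. The 3 groups were apart, and the step from 1 to 3 dpi was a rise of 0.55 (SE 0.08, 1.47-fold, adjusted p = 0.0012). The fold against Ctrl was 2.32 at 1 dpi and 3.40 at 3 dpi. At 1 dpi the rise fell just short of 2-fold relative to the median of all genes (0.96) and with the array median as the scale (0.90), with adjusted p values of 4.7e-05 and 0.00072. At 3 dpi it kept to between 1.64 and 1.79 in the 27 alternatives run. A second probe named Myl9, which the array files do not place in the genome, was well above background on 1 of 3 Ctrl, 0 of 3 1 dpi and 1 of 3 3 dpi arrays and was not tested.

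Of the myosin heavy chain genes, Myh10 encodes that of non-muscle myosin IIB, which is switched off as megakaryocytes stop dividing and become polyploid. Its brightest probe (mm9, chr11:68629955-68630014) read -1.63, -1.74 and -1.84 in Ctrl, -3.50, -3.68 and -3.70 at 1 dpi and -2.58, -2.66 and -2.55 at 3 dpi. The 3 groups did not overlap, and 3 dpi lay between Ctrl and 1 dpi. Myh10 fell by 1.89 on the log2 scale (SE 0.08, 3.71-fold, adjusted p = 2.9e-06) at 1 dpi and by 0.86 (SE 0.08, 1.82-fold, adjusted p = 0.00015) at 3 dpi, and it rose by 1.03 (SE 0.08, 2.04-fold, adjusted p = 9.4e-05) from 1 to 3 dpi. Relative to the median of all genes the 3 values were -2.14, -0.98 and 1.14.

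The Myh10 signal was also dim, and the size of its change differed with the background correction and the probe. The processed intensity of this probe lay between 339 and 472.8 units in Ctrl, between 53.2 and 56.7 at 1 dpi and between 220.1 and 253.2 at 3 dpi. With a normexp background the fall at 1 dpi was 1.09 and the later rise 0.38 (adjusted p = 0.0014), under 2-fold. A second probe close by (mm9, chr11:68630067-68630126) read between -4.52 and -4.11 in Ctrl, between -5.39 and -4.80 at 1 dpi and between -4.86 and -4.51 at 3 dpi. It fell by 0.83 (SE 0.18, adjusted p = 0.0061) at 1 dpi, and its -0.47 at 3 dpi did not pass (adjusted p = 0.084). From 1 to 3 dpi this probe had 0.36 (adjusted p = 0.15) with overlapping groups, so the later rise passed the test with the brightest probe and not with this one. Another probe was well above background on 3 of 3 Ctrl and 0 of 3 1 dpi arrays, and in comparisons with 1 dpi it gives no fold since its bound is below 1. At 3 dpi, where 3 of 3 arrays were well above background, this probe did not pass against Ctrl. Its value was -0.66 (SE 0.39, limma adjusted p = 0.24) with overlapping groups. The remaining 2 probes of Myh10 did not pass the filter on dim spots.

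Myh9 encodes the heavy chain of non-muscle myosin IIA, the main myosin of platelets and the gene behind inherited giant platelets. Its brightest probe (mm9, chr15:77591033-77591092) read 6.18, 6.16 and 6.10 in Ctrl, 6.56, 6.53 and 6.49 at 1 dpi and 6.21, 6.02 and 6.03 at 3 dpi. The 1 dpi arrays stood above all others and 3 dpi overlapped Ctrl. Myh9 rose by 0.38 (SE 0.07, 1.30-fold, adjusted p = 0.0027) at 1 dpi, was at -0.06 (95% confidence interval -0.22 to 0.10, adjusted p = 0.53) at 3 dpi, and fell by 0.44 (SE 0.07, adjusted p = 0.0018) between them. This rise at 1 dpi depended on the scaling. It was 0.13 relative to the median of all genes (adjusted p = 0.15), 0.06 with the array median as the scale (adjusted p = 0.71) and -0.09 after quantile normalization (adjusted p = 0.28). The fall from 1 to 3 dpi was 0.25 with the array median as the scale (adjusted p = 0.17) and 0.05 after quantile normalization (adjusted p = 0.52).

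The 4 probes of Myh9 did not give 1 pattern. At 1 dpi they ranged from 0.07 to 0.76 and 3 of 4 passed the test upward. At 3 dpi they ranged from -0.69 to -0.06, and the probe at chr15:77636006-77636065 of mm9 was the one that passed. It read 2.29, 2.12 and 2.15 in Ctrl, 2.18, 2.35 and 2.26 at 1 dpi and 1.51, 1.52 and 1.47 at 3 dpi, a fall of 0.69 (SE 0.07, 1.61-fold, adjusted p = 0.00027) with no overlap with Ctrl. From 1 to 3 dpi all 4 probes passed downward, by 0.44 to 1.02. Which transcripts of the gene each probe reads was not analysed here.

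**Figure D2:**
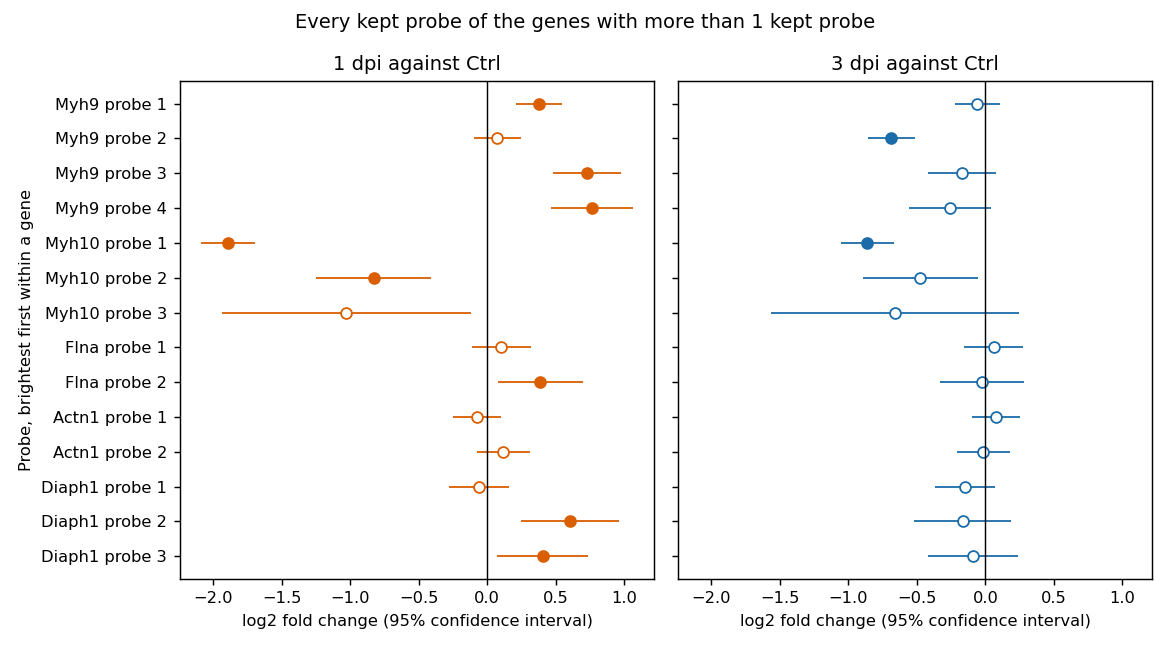
Fitted log2 fold change of each kept probe (horizontal axis, with its 95% confidence interval) for the genes with more than 1 kept probe, brightest first within a gene, at 1 dpi (left) and 3 dpi (right). Filled points passed the test, and at 1 dpi the fitted values of Myh10's probes span -1.89 to -0.83, those of Myh9 0.07 to 0.76, those of Diaph1 -0.06 to 0.60 and those of Flna 0.10 to 0.39. For the Myh10 probe not well above background at 1 dpi, the fitted value there is not read as a fold.

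Tpm4 rose at both times. Tropomyosin 4 lies along the filaments and its loss gives large platelets. Its probe (mm9, chr8:74676901-74676958) read 2.89, 3.03 and 3.02 in Ctrl, 3.42, 3.40 and 3.39 at 1 dpi and 3.96, 3.87 and 3.90 at 3 dpi. The groups were separated at each step. Tpm4 rose by 0.42 (SE 0.06, 1.34-fold, adjusted p = 0.00089) at 1 dpi, by 0.93 (SE 0.06, 1.90-fold, adjusted p = 2e-05) at 3 dpi and by 0.51 (SE 0.06, adjusted p = 0.00053) between them. The rises against Ctrl beyond the median of all genes were 0.17 and 0.81. At 1 dpi scaling to the array median left 0.11 (adjusted p = 0.40), and at 3 dpi the lowest of the 27 alternatives was 0.80.

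Filamin A, which ties the von Willebrand factor receptor to the actin mesh, and α-actinin 1, which bundles filaments, did not pass the test through their brightest probes. Flna read 6.03, 5.80 and 5.76 in Ctrl, 5.97, 5.98 and 5.95 at 1 dpi and 6.05, 5.84 and 5.87 at 3 dpi (mm9, chrX:71468802-71468861). Its change was 0.10 (95% confidence interval -0.11 to 0.31) at 1 dpi and 0.06 (-0.15 to 0.27) at 3 dpi. Quantile normalization turned the value at 1 dpi to -0.31 (adjusted p = 0.031), and a second Flna probe was at 0.39 (SE 0.13, adjusted p = 0.039) on the main scale, so its direction is not settled. That second probe fell by 0.41 (adjusted p = 0.037) from 1 to 3 dpi. Actn1 read 3.81, 3.77 and 3.74 in Ctrl, 3.69, 3.72 and 3.69 at 1 dpi and 3.96, 3.88 and 3.71 at 3 dpi (mm9, chr12:81268736-81268794). Its change was -0.07 (-0.25 to 0.10) at 1 dpi and 0.08 (-0.09 to 0.25) at 3 dpi. Relative to the median of all genes Actn1 was at -0.32 at 1 dpi (adjusted p = 0.0075), past the test though under 2-fold, as it was at -0.21 with quantile normalization (adjusted p = 0.025) and -0.39 with the array median (adjusted p = 0.041). Actn1 had 0.15 from 1 to 3 dpi (-0.02 to 0.32, adjusted p = 0.13), and it passed with quantile normalization (0.20, adjusted p = 0.032), normexp (0.21, adjusted p = 0.016) and relative to all genes (0.26, adjusted p = 0.023). Its second probe was at 0.12 and -0.02 on the main scale.

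Of the 2 regulators of actin assembly, Was fell narrowly at 1 dpi and the brightest probe of Diaph1 did not pass the test on the main scale. Diaph1 encodes a formin that nucleates straight filaments, and it read 4.56, 4.32 and 4.31 in Ctrl, 4.35, 4.35 and 4.31 at 1 dpi and 4.38, 4.22 and 4.13 at 3 dpi. Its changes were -0.06 (95% confidence interval -0.28 to 0.16) and -0.15 (-0.37 to 0.07). Diaph1 passed the test downward at 1 dpi relative to the median of all genes (-0.31, adjusted p = 0.026) and with quantile normalization at both times (-0.26, adjusted p = 0.029, and -0.28, adjusted p = 0.030). The other 2 probes of Diaph1 rose at 1 dpi, by 0.60 (SE 0.15, adjusted p = 0.012) and 0.40 (SE 0.14, adjusted p = 0.042), and were at -0.17 and -0.09 at 3 dpi. They fell from 1 to 3 dpi by 0.77 (adjusted p = 0.0050) and 0.49 (adjusted p = 0.023). Was encodes WASp, which activates the Arp2/3 complex and whose loss gives small platelets. It read 4.37, 3.88 and 3.97 in Ctrl, 3.74, 3.73 and 3.77 at 1 dpi and 3.97, 3.94 and 3.89 at 3 dpi (mm9, chrX:7658779-7658838). Ctrl replicate 1 is the high value. Was fell by 0.33 (SE 0.12, adjusted p = 0.049) at 1 dpi, and without Ctrl replicate 1, which leaves the 8 arrays of 1 slide, by 0.18 (adjusted p = 0.026). The fall passed the test narrowly and lost it in 14 of 27 alternatives, among them 7 that left out an array (adjusted p up to 0.11), the replicate block, the fit on the groups compared and the methods' t-test. Other scalings gave a larger fall, of 0.58 beyond the median of all genes (adjusted p = 0.0049), 0.65 with the array median (adjusted p = 0.024) and 0.49 with quantile normalization (adjusted p = 0.0079). At 3 dpi it was at -0.14 (95% confidence interval -0.42 to 0.14, adjusted p = 0.42). Between 1 and 3 dpi the groups were apart with 0.19 (-0.09 to 0.48, adjusted p = 0.24), and with the slide as a block, which leaves out Ctrl replicate 1, the same 0.19 passed (adjusted p = 0.013).

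**Figure D3:**
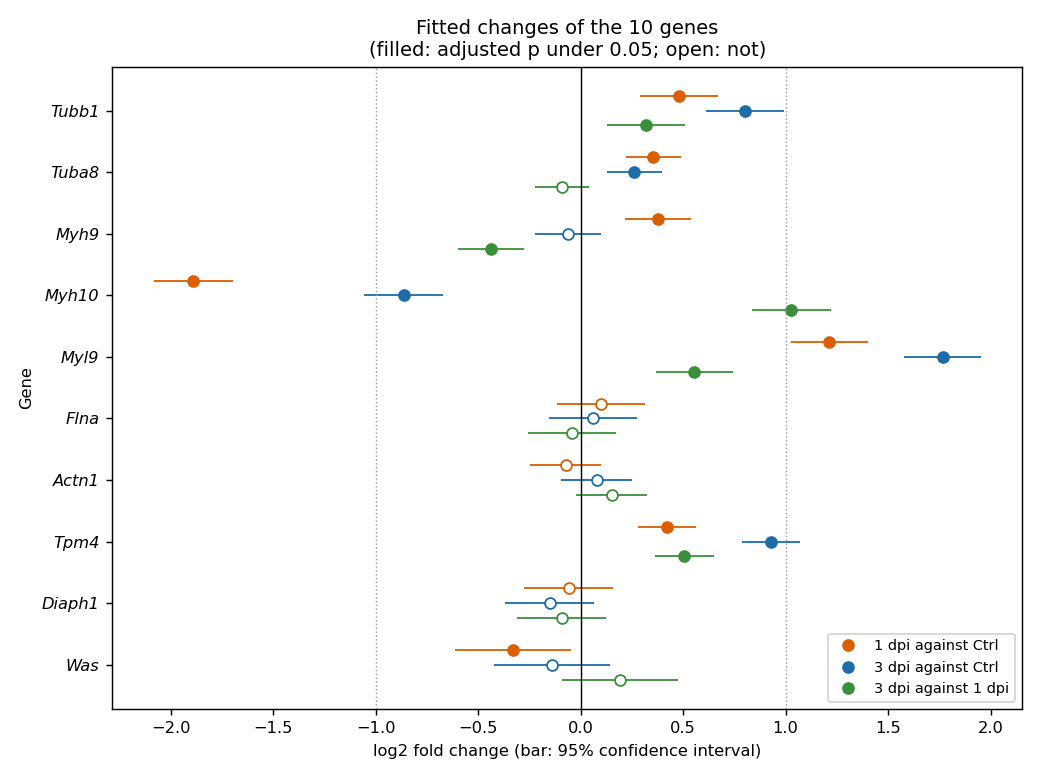
Fitted log2 fold changes of the 10 genes (horizontal axis, bars are 95% confidence intervals) in the 3 comparisons. Filled points passed the test at an adjusted p under 0.05 and dotted lines mark a 2-fold change, which Myl9 exceeds in both comparisons with Ctrl and Myh10 at 1 dpi and for 3 dpi against 1 dpi.

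The deposited log2 table reads 4 of the 10 genes through another probe than the brightest. Set against quantile-normalized probes, the row of each gene followed 1 probe to within 0.0024 on the log2 scale. For Myh9, Flna and Diaph1 this was a dimmer probe, and for Myh10 it was the probe that was not well above background at 1 dpi. In that table Myh9 was at 0.75 at 1 dpi (adjusted p = 0.00097) and Diaph1 at 0.63 (adjusted p = 0.0074). No value is given for Myh10 from the table. For the other 6 genes, Myl9, Tpm4 and Tubb1 among them, table and arrays use the same probe. Their rises at 3 dpi in the table were 1.75, 0.89 and 0.76.

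Other genes of the same machinery were grouped in 9 lists with 98 genes, of which 96 were tested. At 1 dpi 38 rose and 22 fell, beside 34.8% and 21.1% of all genes, with 7 called higher (7.29% of those tested, beside 12.3%) and 0 lower (beside 2.87%). Their median change of 0.09 lay 0.15 below that of all genes. At 3 dpi 17 rose and 7 fell, beside 16.9% and 15.1%, with 3 called higher (3.13%, beside 6.98%) and 0 lower (beside 1.82%), and the median of 0.08 lay 0.03 below that of all genes. From 1 to 3 dpi 24 rose and 24 fell, beside 19.8% and 24.9% of all genes. There 1 was called higher (1.04%, beside 3.97%) and 4 lower (beside 4.82% of all genes). The median was -0.03, beside -0.11 for all genes.

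The counts of each list below stand beside the shares of all genes. These were 34.8% higher and 21.1% lower at 1 dpi, and 16.9% and 15.1% at 3 dpi. Of the paralogs of the members, the tubulins formed the longest list. Of 16 tested, 10 rose and 3 fell at 1 dpi, with a median of 0.52 or 0.27 above that of all genes, and 6 rose and 1 fell at 3 dpi. Tubb6, a β-tubulin of many tissues, went from a mean of 0.49 in Ctrl to 2.67 at 1 dpi and 2.24 at 3 dpi, rises of 2.18 (SE 0.06, adjusted p = 3.3e-07) and 1.75 (SE 0.06, adjusted p = 5.6e-07). Tubb4a, known as a β-tubulin of the nervous system, rose by 1.28 (SE 0.29, adjusted p = 0.0076) at 1 dpi and fell by 1.25 (SE 0.29, adjusted p = 0.010) from 1 to 3 dpi. Tubb2b rose by 1.08 (SE 0.16, adjusted p = 0.0014) from 1 to 3 dpi. Against Ctrl Tubb2b was at -0.47 (limma adjusted p = 0.038) at 1 dpi and at 0.60 (limma adjusted p = 0.024) at 3 dpi.

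Of 3 other tropomyosins 2 rose at both times, as Tpm4 did. Tpm2, a tropomyosin of muscle and stromal cells, was 1.29 (SE 0.09, adjusted p = 2.6e-05) higher at 1 dpi and 1.24 (SE 0.09, adjusted p = 3.4e-05) higher at 3 dpi, its 2 probes ranging from 0.12 to 1.24 at 3 dpi. Tpm1 was called at 3 dpi with 1.09 (SE 0.07, adjusted p = 1.9e-05), but it was at 0.97 beyond the median of all genes, under 2-fold, and its 4 probes ranged from -0.66 to 1.09. Of 8 other myosin genes 3 rose and 2 fell at 1 dpi, and of 5 filamins and actinins 3 rose and 0 fell, none of them called. Of 5 other formins 1 rose and 1 fell. Of 5 genes of the WASP family 1 rose and 1 fell, and Wasf1, a subunit of the WAVE complex, was the called one with 1.07 (SE 0.28, adjusted p = 0.015), or 0.82 beyond the median of all genes, under 2-fold.

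The lists of the wider machinery held few called genes in the comparisons with Ctrl. From 1 to 3 dpi 2 of 17 microtubule motors and regulators were called lower (11.8%, beside 4.82% of all genes) and 0 higher. Of 17 microtubule motors and regulators 3 rose and 6 fell at 1 dpi. Ttl, the ligase that puts tyrosine back on α-tubulin, was called with 1.93 (SE 0.09, adjusted p = 3.6e-06) at 1 dpi and fell by 1.76 (SE 0.09, adjusted p = 1.5e-05) from 1 to 3 dpi. The other probe of Ttl was at -0.31 at 1 dpi and at 0.10 from 1 to 3 dpi. Tbce, a chaperone of tubulin folding, fell by 1.28 (SE 0.09, adjusted p = 4.6e-05) from 1 to 3 dpi, and its 3 probes ranged from -1.28 to 0.35. Against Ctrl Tbce was at 0.68 (limma adjusted p = 0.00048) at 1 dpi and at -0.60 (limma adjusted p = 0.0013) at 3 dpi. Of 24 genes of actin turnover and the Arp2/3 complex 13 rose and 5 fell at 1 dpi. Capza1, which caps filament ends, was called with a 2.15-fold rise (SE 0.06 on the log2 scale, adjusted p = 1.1e-05), or 0.86 on the log2 scale beyond the median of all genes, under 2-fold, and its other probe had a log2 fold change of 0.02. Of 13 genes of the membrane skeleton 2 rose and 4 fell, with 0 called. At 3 dpi these 3 lists had 3, 3 and 1 genes higher and 4, 0 and 0 lower, in the same order.

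**Figure D4:**
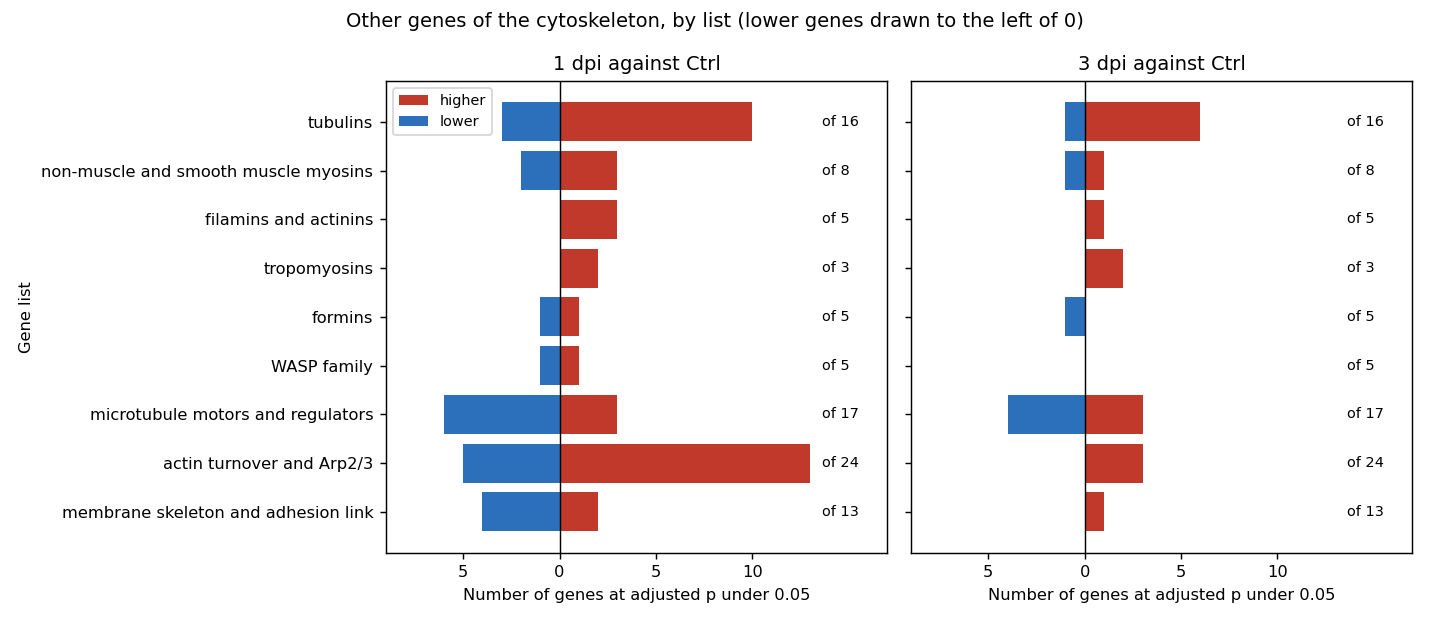
Number of genes of each cytoskeleton list that passed the test higher (right of 0) or lower (left of 0) than Ctrl at 1 dpi and 3 dpi, with the number tested at the right. Tubulins (10 of 16 higher) and actin turnover genes (13 of 24 higher) hold the longest bars at 1 dpi, beside 34.8% of all genes. Fewer genes passed at 3 dpi.

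The genes whose levels followed Myl9, Tubb1 and Myh10 most closely were sought among 24006 genes well above background on all 9 arrays, by Pearson's r over the arrays, given as a description since all genes share the same arrays and groups. For Myl9 they were Cttnbp2nl (r = 0.999), Mid2 (r = 0.998) and Igfbp7 (r = 0.998). Igfbp7, a secreted protein that stromal and vascular cells make, had log2 fold changes of 1.96 at 1 dpi and 2.84 at 3 dpi. For Tubb1 they were Arhgap31 (r = 0.989), Ms4a6b (r = 0.984) and Gzmk (r = 0.982), the latter a granule protease of lymphocytes. For Myh10 they were Zfp708 (r = 0.998), Igip (r = 0.996) and Calhm2 (r = 0.996).

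Marker genes of other cells moved across the same groups. Over all genes tested 34.8% rose and 21.1% fell at 1 dpi, and 16.9% and 15.1% at 3 dpi. From 1 to 3 dpi these shares were 19.8% and 24.9%. The log2 summed intensity of 12 stromal markers lay between 3.26 and 3.32 in Ctrl, between 5.50 and 5.72 at 1 dpi and between 6.44 and 6.57 at 3 dpi. Of them 11 rose at 1 dpi and 10 at 3 dpi. Of 12 tested smooth muscle and pericyte markers 8 rose and 1 fell at 1 dpi, and 7 rose and 1 fell at 3 dpi. From 1 to 3 dpi 2 rose and 3 fell. The sum of the list was 4.92 to 4.96 in Ctrl, 5.31 to 5.47 at 1 dpi and 4.89 to 5.07 at 3 dpi. The sum of 9 endothelial markers went from 3.18 to 3.40 in Ctrl to 3.48 to 3.65 at 1 dpi and 3.81 to 3.97 at 3 dpi. Of these markers 6 rose and 1 fell at 1 dpi, and 5 rose and 0 fell at 3 dpi. That of 10 macrophage markers went from 5.72 to 5.93 to 6.22 to 6.31 and 7.10 to 7.15, with 6 genes higher and 3 lower at 1 dpi and all 10 higher at 3 dpi. The stromal, endothelial and macrophage sums each climbed in the order of groups seen for Myl9, Tpm4 and Tubb1, without overlap. Single genes of the first 2 lists were split. From 1 to 3 dpi 8 stromal markers rose and 3 fell, 6 endothelial markers rose and 1 fell, and all 10 macrophage markers rose. The sum of 8 B cell markers, of which 7 fell at each time, dropped from 4.61 to 4.71 in Ctrl to 2.43 to 2.49 at 1 dpi and 2.37 to 2.42 at 3 dpi. The erythroid sum, which the globin genes set, lay between 6.88 and 7.09 in Ctrl, 7.83 and 8.16 at 1 dpi and 5.35 and 5.46 at 3 dpi, while 6 of its 10 genes fell and 3 rose at 1 dpi (median -1.68) and 9 fell at 3 dpi. The neutrophil sum was highest at 1 dpi, at 10.73 to 10.85, where 7 of 9 genes rose. Of 8 T and NK cell genes 6 rose at 1 dpi and 5 at 3 dpi, and from 1 to 3 dpi 4 rose and 2 fell, the sum being 4.90 to 4.97 in Ctrl, 5.34 to 5.44 at 1 dpi and 4.99 to 5.17 at 3 dpi. Of 8 proliferation genes 4 fell at 1 dpi, where the sum was lowest at 6.55 to 6.61, and 1 rose at 3 dpi. That of 18 megakaryocyte markers lay between 7.46 and 7.64 in Ctrl, 7.31 and 7.45 at 1 dpi and 7.45 and 7.50 at 3 dpi. Single megakaryocyte markers moved both ways. At 1 dpi 3 rose and 7 fell, while 5 rose and 4 fell at 3 dpi. Zfpm1, a cofactor of GATA1, was the 1 called lower at each time (-1.33 and -1.65). Gata1 itself had -0.67 and -0.80, and the platelet receptor genes Gp6 and Gp9 had 0.95 and 0.93 at 3 dpi, these 4 being named after their values were seen. Myl9, Tpm1, Tpm2 and Tubb6 are also known from stromal and smooth muscle cells. The part of these cells in the changes of the members was not tested.

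**Figure D5:**
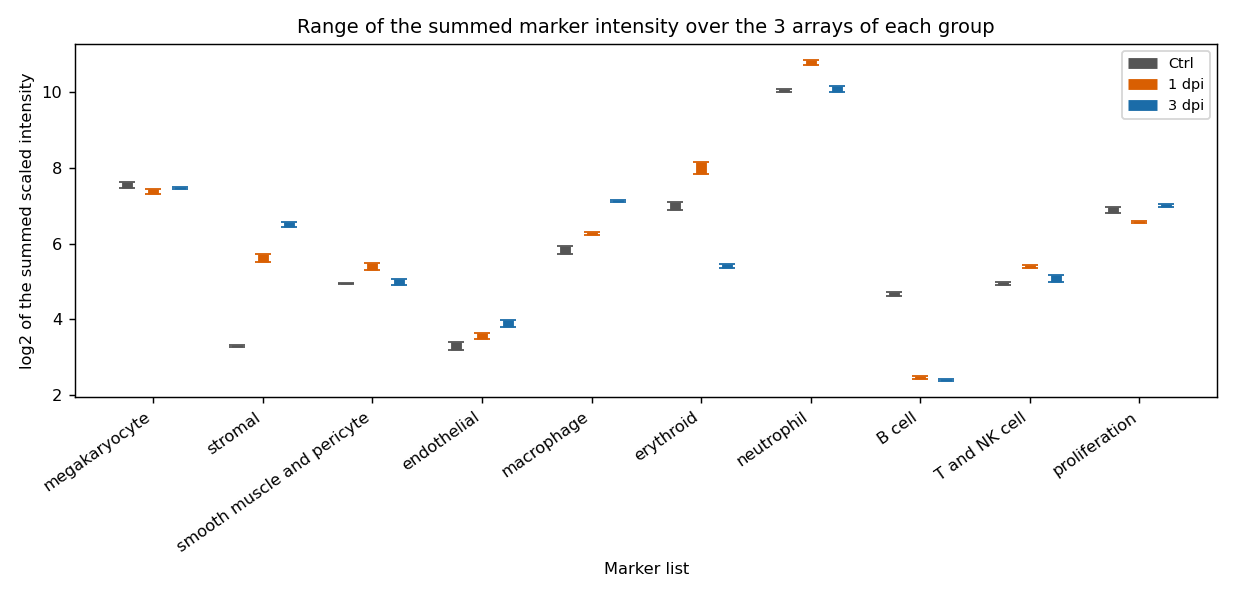
Range over the 3 arrays of a group of the summed scaled intensity of each marker list (vertical axis, log2), to be read within a list and not between lists. Stromal markers climb from 3.26 to 3.32 in Ctrl to 6.44 to 6.57 at 3 dpi, while the megakaryocyte sum, which the brightest genes set, lies between 7.31 and 7.64.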

How the data were processed

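RNA of mature megakaryocytes was measured on 9 Agilent 1-colour arrays, 3 per group. The authors deposited scanner tables made with Feature Extraction 10.7.1.1 (per the file headers, build mm9), whose processed signal is a background-subtracted intensity, and a table of log2 values whose processing is not given in the sources used here and whose rows each follow 1 quantile-normalized probe for the 10 genes. The methods text describes another array type, and the files were taken as they are. Depth has no meaning for arrays, and 3 arrays per group limit the precision.

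From each array, control and outlier spots were left out (0 were saturated), log2 intensities were set relative to the array's 75th percentile, and spots of a probe were averaged. A probe was kept if 1 group or more had all 3 of its arrays flagged as well above background, and a gene was read through its brightest kept probe. limma 3.58.1 (R 4.3.3; lmFit and eBayes, all 9 arrays, no covariates) was used, with Benjamini-Hochberg adjustment over 29410 genes. For 3 against 3 arrays an exact permutation test cannot go below p = 0.10. On simulated data 83.5%, 83% and 85.5% of 200 changed genes were recovered at 1 dpi, at 3 dpi and between them, with 3, 7 and 4 false calls. Only 200 of 29410 genes were changed there, far fewer than passed the test in these data. The simulated false calls therefore do not give the error rate of the calls reported here. The alternatives were other scalings and backgrounds, filters, probe rules, blocks, thresholds, the methods' t-test and leaving out each array.

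The members and lists were chosen with earlier results of these data known. The genes named by rule are all members, in each comparison at most 2 called genes of each cytoskeleton list with the largest change and well above background in both groups, and the 3 genes most correlated with Tubb1, Myl9 and Myh10. Promoters come from RefSeq. A further gene list is not reported here.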

Additional observations from a re-analysis of the deposited data

Results flagged for a closer look

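The change of Myh10 against Ctrl differed between the times after irradiation. It was -1.89 at 1 dpi and -0.86 at 3 dpi, and the difference of 1.03 on the log2 scale passed the test (limma adjusted p = 9.4e-05). On the brightest probe all 3 arrays of 3 dpi lay above the 3 of 1 dpi. A second probe gave 0.36 (adjusted p = 0.15) with overlapping groups, and the remaining kept probe, not well above background at 1 dpi, gives no fold. With a normexp background the difference was 0.38 (adjusted p = 0.0014).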

How the results depend on the processing

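Of 810 values of single genes under an alternative, 722 kept their direction and their side of adjusted p = 0.05, 29 lost the test, 26 gained it and 33 changed sign. Of the losses 14 were Was at 1 dpi. Genes called over all cytoskeleton lists, the unreported one included, ranged from 5 to 69 at 1 dpi (7 in the main setting), from 1 to 27 at 3 dpi (3) and from 3 to 56 between them (5), the highest with no minimum fold. Members called at 1 dpi numbered 2, and 1 after scaling to the array median or relative to the median of all genes and 7 with no minimum fold. At 3 dpi 1 was called, and 5 with no minimum fold and 4 at 1.5-fold. From 1 to 3 dpi 1 was called, against 0 with normexp, the deposited table or the mean of a gene's probes, 2 with the most variable probe and 5 with no minimum fold. Leaving out 1 array gave 0 to 1 there, the 0 being without 1 dpi replicate 3 (Myh10 at 0.99). Member probes called were 2, 1 and 2 of 19, beside 14.6%, 8.44% and 8.78% of all 44300 probes. At 1 dpi they were 4 with quantile normalization, 13 with no minimum fold and 6 at 1.5-fold. At 3 dpi they were 6 and 5 with the latter 2. From 1 to 3 dpi they were 1 with quantile normalization, array median or relative scaling, 0 with normexp, 11 with no minimum fold and 5 at 1.5-fold, and 1 to 2 without 1 array. Values under 2-fold in the main setting changed sign. Some passed the test after the change, such as Flna with quantile normalization (limma adjusted p = 0.031) and Diaph1 in the deposited table (limma adjusted p = 0.0074), both at 1 dpi. With quantile normalization Myh9 at 1 dpi was -0.088, Flna -0.31 at 1 dpi, -0.032 at 3 dpi and 0.28 between them, and Actn1 -0.0079 at 3 dpi. With the array median Flna was -0.21, -0.065 and 0.15, Actn1 -0.047 at 3 dpi, and Tuba8 0.099 and Diaph1 0.098 from 1 to 3 dpi. Relative to the median of all genes Flna was -0.15, -0.054 and 0.069, Actn1 -0.036 at 3 dpi, and Tuba8 0.018 and Diaph1 0.018 from 1 to 3 dpi. With normexp Flna was 0.0195 from 1 to 3 dpi. In the deposited table Diaph1 was 0.63 at 1 dpi, Flna -0.0154 and Actn1 -0.0082 at 3 dpi. The mean of probes gave Actn1 0.022 and Diaph1 0.32 at 1 dpi. The most variable probe gave Actn1 0.12 and Diaph1 0.60 at 1 dpi, Flna -0.025 and Actn1 -0.0158 at 3 dpi, and Actn1 -0.13 between them. With the slide as a fixed block, which equals leaving out Ctrl replicate 1, Diaph1 was 0.022 at 1 dpi and Was 0.0105 at 3 dpi. Without 1 array Diaph1 at 1 dpi ranged from -0.10 to 0.022, and at 3 dpi Was ranged from -0.24 to 0.0105 and Flna from -0.006 (without 3 dpi replicate 1) to 0.14. Flna and Diaph1 are read through another probe in the deposited table, and the causes of these changes of sign were otherwise not tested. Replicate numbers did not pair the arrays (correlations of same-numbered arrays -0.11 to 0.13, 1 of 9 over 0.1), and the replicate block called 2, 1 and 1 members. The methods' t-test called 2, 1 and 1 members unadjusted and adjusted.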
